A study of Fragaria hybrid cultivar with 9 samples.

Results

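The miR530 family was followed through petal development in the pink-flowered strawberry cultivar Sijihong, a hybrid of Fragaria and Potentilla. Small RNAs of petals were sequenced at the young bud stage (PF_L), when coloration sets in (PF_Z) and in big buds (PF_D). Each stage had 3 biological replicates, so 9 libraries were made, and all of them share the cultivar, the tissue and growth in open ground without a treatment. The family was taken as every line whose name holds miR530 or MIR530 followed by no further digit. The rule found 8 of 1876 lines, 1 of them a full repeat of another, and thus 7 of 1660 distinct sequences. The sequences were selected on their names, but the family itself was chosen by its normalized reads over the 3 stages, which were already known. Its levels and changes are therefore descriptions and carry no p. Petals were sampled whole, so fewer cells of a type and less RNA per cell cannot be told apart, and since the table lists miRNAs only, the tissue could not be checked against marker genes.

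Plant miRNAs are cut as a duplex from a hairpin precursor, with 1 strand from the 5p arm and 1 from the 3p arm. The strand that is kept guides the cleavage or the translational repression of complementary mRNAs. In rice, miR530 represses a gene for a protein with a PLUS3 domain, is activated by a phytochrome-interacting factor-like protein and limits grain size and panicle branching. The prefix of a name gives the species of the database entry: mdm stands for apple, csi for sweet orange, mes for cassava and gma for soybean. In the suffix, ss lists the positions at which the strawberry read departs from that entry, and L or R lists bases lost or gained at the ends.

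The 7 sequences are shown because their letters show which forms share a seed. Capitals mark the seed, bases 2 to 8, and T stands for U as in the deposited table.
mdm-miR530a_2ss18TC20GC: tGCATTTGcacctgcacctct
mdm-miR530a: tGCATTTGcacctgcacttgt
mdm-miR530a_R-1: tGCATTTGcacctgcacttg
mdm-MIR530a-p5: tCTGCATTtgcacctgcacttgt
mes-MIR530b-p3_2ss11GC21GA: aGGTGCAGgtctaagtgcaga
csi-miR530b-3p_2ss9TC21AG: aGGTGCAGctgcaagtgcagg
gma-MIR530e-p3_2ss15AG18TC: gATATGTTgcctttgtcc

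From their names, the first 4 were assigned to the 5p arm and the last 3 to the 3p arm. For gma-MIR530e-p3_2ss15AG18TC the arm rests on the name alone, and its pairing with a 5p sequence was not tested. The form with substitutions and mdm-miR530a were identical at 19 of 21 bases and differed by T18C and G20C, counted from the 5′ end with the base of mdm-miR530a first. These bases are in capitals in the next lines.
mdm-miR530a_2ss18TC20GC: tgcatttgcacctgcacCtCt
mdm-miR530a: tgcatttgcacctgcacTtGt
Both differences lie near the 3′ end, outside the seed. mdm-MIR530a-p5 is mdm-miR530a with 2 more bases at the 5′ end, which moves its seed, and mdm-miR530a_R-1 lacks 1 base at the 3′ end. On the 3p arm, mes-MIR530b-p3_2ss11GC21GA and csi-miR530b-3p_2ss9TC21AG share a seed and were identical at 17 of 21 bases. gma-MIR530e-p3_2ss15AG18TC, with 18 nucleotides, shares no seed with the others and matched mdm-miR530a_2ss18TC20GC at 7 of 18 bases in the best ungapped alignment. No member is listed under a second name, and 0 sequences outside the family share a run of 14 bases with a member. The loci of these sequences were not analysed here.

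The letters of the 21-nucleotide 3p sequences are complementary to those of the 5p sequences. With 2 bases left unpaired at the 3′ end of the 5p strand, 19 positions faced each other without gaps. In this register mdm-miR530a_2ss18TC20GC formed 16 Watson-Crick and 2 G-U pairs with mes-MIR530b-p3_2ss11GC21GA, and 17 Watson-Crick pairs and 1 G-U pair with csi-miR530b-3p_2ss9TC21AG, with 1 mismatch in each duplex. mdm-miR530a formed 15 and 16 Watson-Crick pairs with the same 3p strands, since its base at position 18 faced them in a G-U pair. Position 20 lay in the unpaired end. Which strands come from 1 precursor was not tested.

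Values are normalized reads as deposited. Summed over distinct sequences, a library held 751798 to 1239876 reads of listed miRNAs, and 1 read was worth 0.713 to 0.882 normalized reads in PF_L libraries, 1.05 to 1.09 in PF_Z libraries and 1.07 to 1.27 in PF_D libraries. The same number of reads therefore gives a higher value in PF_D than in PF_L. Reads carry no molecular identifiers, so the intervals and floors given here cover counting error only.

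The family total was higher at each later stage. PF_L libraries held 497, 482 and 463 normalized reads of miR530, PF_Z libraries 1335, 826 and 570.4, and PF_D libraries 2024, 2015 and 2472. No stage overlapped another, and the spread was widest in PF_Z. The stage means were 481 ± 17.2 for PF_L, 910.5 ± 389 for PF_Z and 2170.2 ± 262 for PF_D (SD, n = 3 libraries). The mean of PF_D was 4.52 times that of PF_L and 2.38 times that of PF_Z, and the mean of PF_Z was 1.89 times that of PF_L. On the log2(value + 1) scale the change was 2.17 for PF_D against PF_L, 1.33 for PF_D against PF_Z and 0.83 for PF_Z against PF_L, each with a standard error of 0.29. That error is equal because the fit shares 1 spread over the 3 stages. With only the compared stages fitted, the standard errors were 0.18, 0.33 and 0.32 in the same order.

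Among the 139 families tested, the change of miR530 had rank 3 from the top for PF_D against PF_L, rank 9 for PF_D against PF_Z and rank 21 for PF_Z against PF_L. The median log2 change over all families was 0.23, 0.16 and 0.19 in these comparisons. Families whose PF_D libraries all lay above their PF_L libraries made up 29.5% of those tested. The corresponding share was 14.4% for PF_D above PF_Z and 16.5% for PF_Z above PF_L. By its level the family had rank 31 of 162 known families in PF_L, 30 in PF_Z and 24 in PF_D.

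Within PF_Z the order of the libraries in miR530 was also their order in the summed values of all distinct sequences, which were 1199249, 895525 and 789054 for replicates 1, 2 and 3. As a share of these sums the family took 0.111%, 0.0922% and 0.0723% in the PF_Z libraries, so the order stayed the same and the spread was smaller. The mean share was 0.0512% ± 0.00482 for PF_L, 0.0919% ± 0.0195 for PF_Z and 0.173% ± 0.0163 for PF_D (SD, n = 3). Without replicate 1 of PF_Z the log2 change of the family total for PF_Z against PF_L was 0.51, and without replicate 3 of PF_Z it was 1.13.

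A single 5p sequence carried the family. mdm-miR530a_2ss18TC20GC reached 471, 445 and 445 normalized reads in the PF_L libraries, 1278, 779 and 537 in those of PF_Z, and 1937, 1931 and 2355 in those of PF_D. These values rest on 534, 624 and 539 reads for PF_L, 1176, 715 and 512 for PF_Z, and 1520, 1711 and 2210 for PF_D. PF_D lay above PF_L both in normalized values and in plain reads, whereas PF_Z overlapped PF_L in plain reads. The sequence made up 94.4% ± 1.88 of the family total at PF_L, 94.7% ± 0.884 at PF_Z and 95.6% ± 0.290 at PF_D (SD, n = 3). Its mean was 2074 ± 243 in PF_D against 454 ± 15.1 in PF_L, 4.57 times as high, with a log2 change of 2.18 (standard error 0.27). Among all 1660 sequences it had rank 37 in PF_D, against rank 67 in PF_L.

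**Figure D1:**
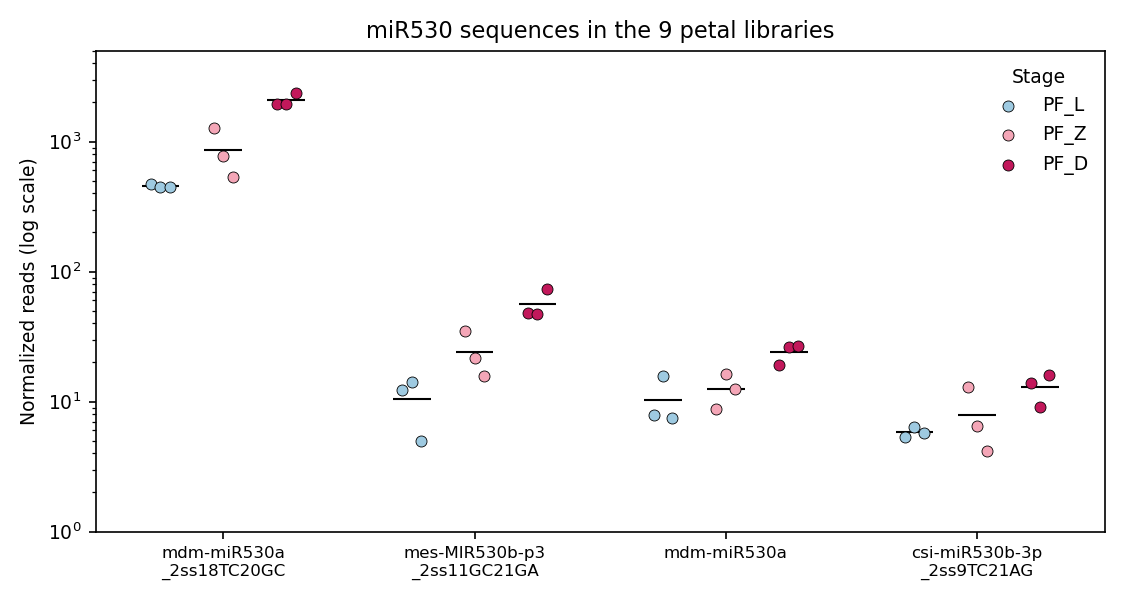
Normalized reads (log axis) of the 4 miR530 sequences with at least 4 reads in every library, with 1 point per library and a line at the mean of each stage. mdm-miR530a_2ss18TC20GC lies between 445 and 2355 while the others stay under 100, and for each of the 4 sequences the PF_D points lie above the PF_L points.

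mes-MIR530b-p3_2ss11GC21GA is the 3p strand whose first 10 bases all form Watson-Crick pairs with that sequence. Its values were 12.3, 14.3 and 4.95 normalized reads in PF_L libraries, 34.8, 21.8 and 15.7 in PF_Z libraries, and 48.4, 47.4 and 73.5 in PF_D libraries. In normalized reads the stages did not overlap. In plain reads PF_D (38, 42 and 69) lay above both other stages, while PF_Z (32, 20 and 15) overlapped PF_L (14, 20 and 6). In PF_Z and in PF_D the library highest in the abundant 5p form was also highest in this strand. The mean was 56.5 ± 14.8 in PF_D against 10.5 ± 4.92 in PF_L (SD, n = 3), 5.37 times as high, with a log2 change of 2.40 (standard error 0.42).

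mdm-miR530a, the form equal to the apple entry, stayed at a low level. It had 7.94, 15.7 and 7.42 normalized reads in PF_L libraries, 8.70, 16.3 and 12.6 in PF_Z libraries, and 19.1, 26.5 and 26.6 in PF_D libraries. In normalized reads PF_Z overlapped PF_L, and PF_D lay above both. The mean was 24.1 ± 4.31 in PF_D against 10.4 ± 4.63 in PF_L (SD, n = 3), 2.33 times as high, with a log2 change of 1.20 (standard error 0.40). The values rest on 8 to 25 reads, and in plain reads PF_D (15, 23.5 and 25) overlapped PF_L (9, 22 and 9). PF_D also met PF_Z (8, 15 and 12) in plain reads, at 15. The 95% Poisson interval of mdm-miR530a in replicate 1 of PF_D, 10.7 to 31.5 normalized reads, overlapped that in replicate 2 of PF_L, 9.83 to 23.8.

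csi-miR530b-3p_2ss9TC21AG, the other 3p strand, was scarcer still. It had 5.29, 6.42 and 5.77 normalized reads in PF_L libraries, 13.0, 6.53 and 4.20 in PF_Z libraries, and 14.0, 9.03 and 16.0 in PF_D libraries, from 4 to 15 reads each. PF_Z spanned the whole range of PF_L and overlapped PF_D, and PF_D lay above PF_L. In plain reads PF_D (11, 8 and 15) overlapped PF_L (6, 9 and 7). The mean was 13.0 ± 3.59 in PF_D against 5.83 ± 0.566 in PF_L (SD, n = 3), 2.23 times as high, with a log2 change of 1.01 (standard error 0.46).

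**Figure D2:**
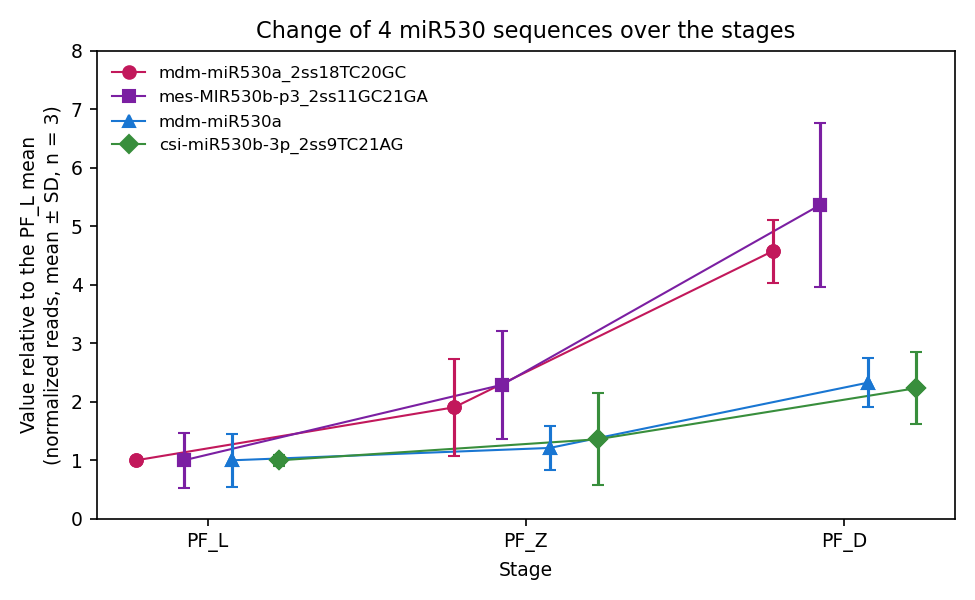
Normalized reads of 4 miR530 sequences divided by their own PF_L mean, by stage (mean and SD of 3 libraries). In PF_D the mean is 4.57 and 5.37 times the PF_L mean for mdm-miR530a_2ss18TC20GC and mes-MIR530b-p3_2ss11GC21GA, and 2.33 and 2.23 times for mdm-miR530a and csi-miR530b-3p_2ss9TC21AG.

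The remaining 3 members stood at or under 3 reads, so no fold is given for them. gma-MIR530e-p3_2ss15AG18TC had 3 reads in replicate 1 of PF_D, 0 in replicate 3 of PF_L and replicate 1 of PF_Z, and a value worth 0.5 read in the other libraries. mdm-MIR530a-p5 had 2 reads in replicate 2 of PF_Z, 1 read in replicate 1 of PF_D and 0 elsewhere. mdm-miR530a_R-1 was above 0 only in replicate 2 of PF_D, at a value worth 0.5 read. A count of 0 allows up to 3 reads, which are 2.14 to 3.82 normalized reads in these libraries, so absence was not detectable at this depth.

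The ratio between strands and forms can be read within each library, where the scaling cancels. The abundant 5p form was 38.1, 31.2 and 89.8 times as abundant as mes-MIR530b-p3_2ss11GC21GA in PF_L, 36.7, 35.8 and 34.1 times in PF_Z, and 40.0, 40.7 and 32.0 times in PF_D. The value of 89.8, in replicate 3 of PF_L, rests on 6 reads of the 3p strand and has a 95% counting interval of 41.0 to 246. The other 8 libraries lay between 31.2 and 40.7, and no stage stood apart.

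Against csi-miR530b-3p_2ss9TC21AG the same 5p form was 89.0, 69.3 and 77.0 times as abundant in PF_L, 98.0, 119 and 128 times in PF_Z, and 138, 214 and 147 times in PF_D. Here the stages did not overlap, although the counting intervals of single libraries did, as between replicate 1 of PF_D (77.0 to 277) and replicate 1 of PF_L (40.6 to 244). Between the 3p strands, mes-MIR530b-p3_2ss11GC21GA was 2.33, 2.22 and 0.857 times as abundant as csi-miR530b-3p_2ss9TC21AG in PF_L, 2.67, 3.33 and 3.75 times in PF_Z, and 3.45, 5.25 and 4.60 times in PF_D. All PF_L libraries lay under those of the later stages, again with overlapping intervals.

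Against mdm-miR530a, the form with T18C and G20C was 59.3, 28.4 and 59.9 times as abundant in PF_L, 147, 47.7 and 42.7 times in PF_Z, and 101, 72.8 and 88.4 times in PF_D. PF_D lay above PF_L, and PF_Z overlapped both. The counting interval of replicate 2 of PF_L, 18.6 to 45.6, lay under those of the 3 PF_D libraries, which began at 47.8 or higher, and under that of replicate 1 of PF_Z. The intervals of the other PF_L libraries reached 130.5 and 132 and overlapped those of PF_D.

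**Figure D3:**
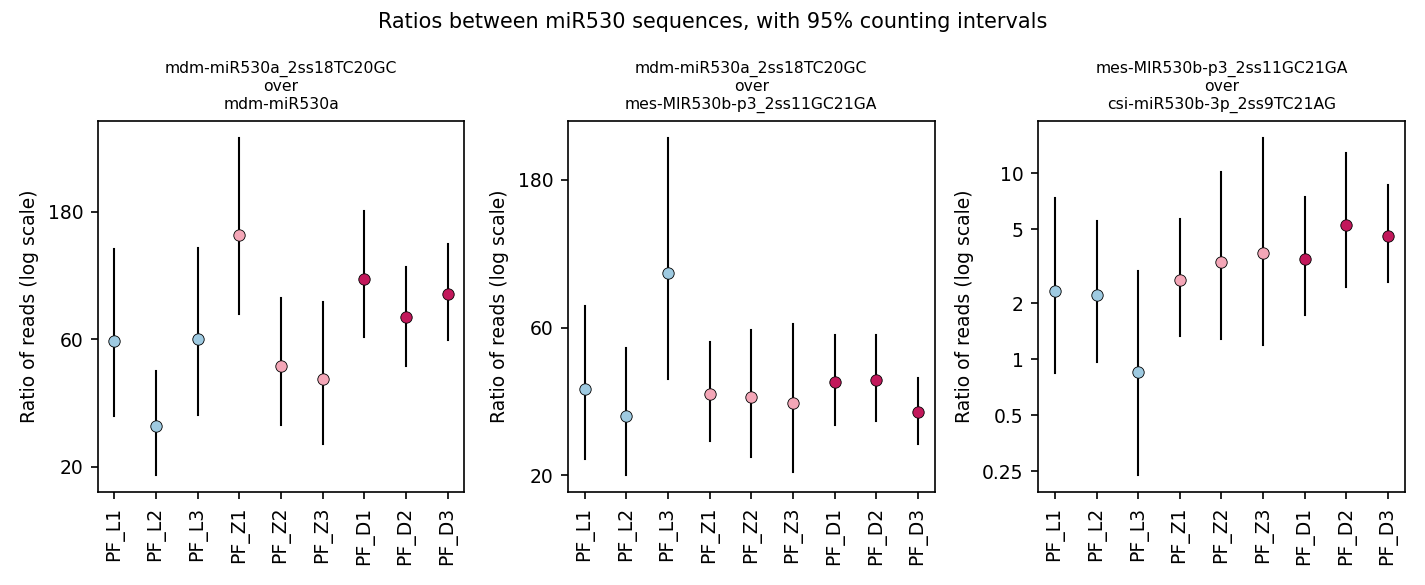
Ratio of reads between pairs of miR530 sequences in each library (log axes), with 95% counting intervals from exact binomial limits. The ratio of mdm-miR530a_2ss18TC20GC to mes-MIR530b-p3_2ss11GC21GA stays between 31.2 and 40.7 except in replicate 3 of PF_L, at 89.8, and in the other panels the PF_D points lie above the PF_L points, with intervals that overlap except for replicate 2 of PF_L in the panel against mdm-miR530a.

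Summed by kind, the 4 forms with substitutions reached 470.2 ± 17.3 normalized reads at PF_L, 897 ± 392 at PF_Z and 2145 ± 260.0 at PF_D, and the mean of PF_D was 4.56 times that of PF_L. The 3 forms without substitutions reached 10.4 ± 4.63, 13.3 ± 4.94 and 24.7 ± 3.74 at these stages (SD, n = 3 each), and the mean of PF_D was 2.39 times that of PF_L. Forms with substitutions held 97.8% ± 0.956 of the family at PF_L, 98.3% ± 0.908 at PF_Z and 98.9% ± 0.178 at PF_D. PF_D lay above PF_L in this share by a narrow margin, and PF_Z overlapped both. The 3p arm held 3.44% ± 1.04, 3.55% ± 0.0530 and 3.25% ± 0.408 of the family, and its stages overlapped.

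Its share of forms with substitutions set miR530 near the upper end of the known families. In the 33 families that have both kinds of form and a mean of at least 50 normalized reads, the median share of forms with substitutions was 37.5%, and 6 families were above 90%. miR530, at 98.3% over the 9 libraries, had rank 3 from the top. Names compare each read with an entry of another species, so the share describes distance from those entries.

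Of the 7 sequences, 5 passed the filter, a value above 0 in 3 or more libraries, and entered the fit over 1554 miRNAs. Between PF_D and PF_L, limma with Benjamini-Hochberg adjustment called 2 of them, mdm-miR530a_2ss18TC20GC and mes-MIR530b-p3_2ss11GC21GA, both higher in PF_D, beside 16.3% of all miRNAs called in either direction and 8.11% called higher. Between PF_D and PF_Z it called mdm-miR530a_2ss18TC20GC alone, beside 3.67% in either direction and 2.64% higher. Between PF_Z and PF_L it called 0, beside 1.16% in either direction and 0.579% higher. At an unadjusted p under 0.05 the count was 2 of the 5, beside 217 of the 1554 miRNAs. The counts only describe sequences of a family chosen on these values.

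Without overlap between libraries, 5 of the 5 were higher in PF_D than in PF_L, where this held for 15.8% of all miRNAs, and 20.5% were lower without overlap. This separation depended on the worth of a read for 3 of the 5. mdm-miR530a, csi-miR530b-3p_2ss9TC21AG and gma-MIR530e-p3_2ss15AG18TC overlapped between PF_D and PF_L in plain reads and also as a share of the library's reads of distinct sequences, both checked after the data were seen, while mdm-miR530a_2ss18TC20GC and mes-MIR530b-p3_2ss11GC21GA did not. Between PF_D and PF_Z the separation held for 3 of the 5, against 9.59% of all miRNAs higher and 10.4% lower. Of these 3, mdm-miR530a did not separate in plain reads, with 15 in replicate 1 of PF_D and in replicate 2 of PF_Z. Between PF_Z and PF_L the separation held for 2 of the 5, against 9.07% of all miRNAs higher and 9.59% lower. Both of them, mdm-miR530a_2ss18TC20GC and mes-MIR530b-p3_2ss11GC21GA, overlapped there in plain reads. Shares of the library's reads were not compared for these pairs of stages. The median log2 change of the 5 was 1.20 for PF_D against PF_L, 0.91 for PF_D against PF_Z and 0.29 for PF_Z against PF_L, while the median of all miRNAs was -0.28, -0.15 and -0.09.

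Both calls between PF_D and PF_L stood in each of the 9 fits that left out 1 library. Since the family was chosen on these values, this describes the calls and is no support for them. In the same comparison mdm-miR530a was called as well without replicate 2 of PF_L or replicate 1 of PF_Z. mdm-miR530a_2ss18TC20GC lost its call between PF_D and PF_Z without replicate 3 of PF_D, and gained one between PF_Z and PF_L without replicate 3 of PF_Z.

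The scaling of the libraries set the size of the change and left its direction. The log2 change of the family total for PF_D against PF_L was 1.75 with all library totals set equal, 2.13 with a median of ratios and 2.76 when reads were scaled to each library's valid reads, those left after read filtering. Over 517 miRNAs averaging 5 or more, the median change was -0.48, -0.12 and 0.44 under these scalings, against -0.09 with the deposited values. Relative to that median the family stood at 2.26 with the deposited values and at 2.23, 2.25 and 2.32 under the alternatives. Each of the 5 tested members had a higher fitted level in PF_D than in PF_L under all 3 scalings. Scaling to valid reads added calls for mdm-miR530a and csi-miR530b-3p_2ss9TC21AG in this comparison. Over all 1554 miRNAs it gave 287 calls there, against 253 with the deposited values.

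Other miRNA families known in rice for grain or panicle size were set beside miR530. Of the 9 families on this list, miR1432 has no listed sequence here and 8 were tested. Between PF_D and PF_L, 3 rose and 1 fell, where 30.2% of all families were called. miR156, which targets SPL transcription factors, had 4685 ± 746 normalized reads in PF_D against 1519 ± 222 in PF_L (log2 change 1.62, limma adjusted p = 3.53e-04). miR396, which targets GRF growth regulators, had a log2 change of 1.20 (adjusted p = 0.0011), and miR397, which targets laccases, one of 0.86 (adjusted p = 0.0123). miR164, which targets NAC factors, fell to 8446 ± 2094 in PF_D, against 14844 ± 2678 in PF_L (log2 change -0.83, adjusted p = 0.0193). The median of the 8 changes was 0.26, against 0.23 over all families.

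The families miR159, miR167, miR398 and miR408, which target GAMYB genes, ARF6 and ARF8, copper superoxide dismutases and plantacyanin-like genes, were not called, with log2 changes of -0.52 to 0.31 for PF_D against PF_L. The call of miR164 ended without replicate 1 of PF_L or replicate 2 or 3 of PF_D (adjusted p = 0.0884, 0.0752 and 0.0745) and with valid reads (0.583). That of miR397 ended without replicate 3 of PF_L (0.0656) and with equal totals (0.273), where miR398 and miR408 were called lower (0.0234 and 0.0158). miR159 was called higher with valid reads (0.0371), and miR408 lower without replicate 1 of PF_D (0.0351).

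Between PF_Z and PF_L, where 10.1% of all families were called, miR156 (log2 change 1.26, limma adjusted p = 0.00429) and miR396 (0.78, adjusted p = 0.0356) were higher in PF_Z. The call of miR396 was lost without any 1 of the PF_L or PF_D libraries or replicate 2 of PF_Z (adjusted p = 0.0546 to 0.212) and with a median of ratios (0.0509). Between PF_D and PF_Z, where 7.19% of all families were called, limma called 0 of the 8, with 1 at an unadjusted p under 0.05. Their log2 changes lay between -0.66 and 0.44 in that comparison, beside 1.33 for miR530. miR164 was called lower there with equal totals (adjusted p = 0.00936) and without replicate 1 of PF_D (0.0489), and miR159 higher without replicate 1 of PF_Z (0.0371).

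**Figure D4:**
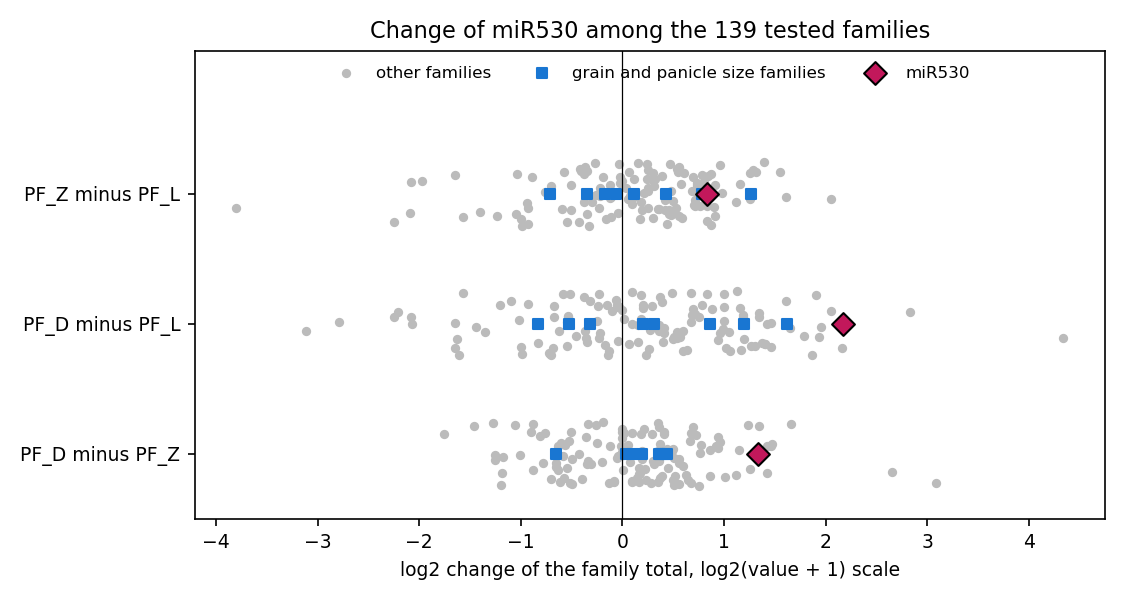
log2 change of the family totals on the log2(value + 1) scale in each comparison of stages for the 139 tested families, with miR530 as a diamond and the 8 grain and panicle size families as squares. Other families are grey points, spread vertically to be seen, and miR530 lies at 0.83, 2.17 and 1.33 from the top row down.

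Last, the stage pattern of the forms was set against 513 listed miRNAs outside the family with a mean of at least 5, by Pearson's r of log2(value + 1). The 9 libraries share the trend over the stages, so r is a description only. Most like the forms with substitutions were mdm-MIR1511-p5_1ss1TA (r = 0.98, Spearman's rho = 0.90), the equal-valued ppe-miR171a, gma-MIR171f-p3 and mdm-miR171g (r = 0.98, rho = 0.90), and csi-miR159a-5p_R-2_1ss19AT (r = 0.97, rho = 0.93). mdm-MIR1511-p5_1ss1TA had 851 ± 109 normalized reads in PF_D against 216 ± 33.5 in PF_L (SD, n = 3). A high r does not mean a change of like size, and ppe-miR171a had 192001 ± 9204 in PF_D against 84305 ± 1481 in PF_L. Most like the forms without substitutions were mdm-miR169o_R-1_1ss7GA (r = 0.94, rho = 0.92), csi-miR399c-5p_2ss5AT19GA (r = 0.94, rho = 0.94), the equal-valued mdm-miR169k_1ss13AG and mdm-miR169b_R-1_2ss13AG14TC (r = 0.93, rho = 0.97), and mdm-miR169k_L+1R-1_1ss2TG (r = 0.92, rho = 0.92). The sum of forms without substitutions rests mostly on the 8 to 25 reads of mdm-miR530a in a library. csi-miR399c-5p_2ss5AT19GA was scarce too, with means of 1.19 normalized reads in PF_L and 1.45 in PF_Z, worth under 3 reads. Its mean in PF_D was 22.1 ± 15.8 (SD, n = 3). Within miR530, the abundant 5p form had r = 0.94 with mes-MIR530b-p3_2ss11GC21GA, 0.89 with csi-miR530b-3p_2ss9TC21AG and 0.71 with mdm-miR530a (rho = 0.98, 0.83 and 0.82).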

How the data were processed

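Petal small RNAs were sequenced by the authors as single-end reads on the HiSeq platform of Illumina. RNA was extracted with Trizol according to the labels and with CTAB according to the methods. Per the methods, the ACGT101-miR pipeline filtered the reads, and sequences of 18 to 25 nucleotides were searched in miRBase. The deposited signal is a normalized read count per miRNA and library, whose formula is not given in the sources used here. The most common value above 0 of a library was taken as 1 read. Within 0.01 read, 65.8% to 70.4% of the values above 0 were then whole, so stages were not compared with a count model. The counting intervals took reads as whole numbers, and the 23.5 reads of mdm-miR530a in replicate 2 of PF_D entered as 24. Valid reads, used for 1 scaling alternative, came from the study's supplement.

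The 173 fully repeated lines were dropped, leaving 1703 listed miRNAs. Stages were compared with limma 3.58.1 (R 4.3.3) on log2(value + 1), with a mean-dependent prior, all 9 libraries and an adjusted p under 0.05, two-sided, for single miRNAs and for families summed over distinct sequences. This scale understates changes of scarce sequences. Arms were read from the names, and mdm-miR530a, which mdm-MIR530a-p5 contains, was counted as 5p. Named were all members, the families of the size list and the 5 miRNAs most like each kind of form. The members and lists were chosen with earlier results of these data known. Alternatives covered pseudocount, filter, scaling, stages in the fit, repeated lines, a replicate block and each library left out. Tables and figures were made with Python 3.11.15, pandas 2.3.3, numpy 2.4.6, matplotlib 3.10.9 and scipy 1.17.1.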

Additional observations from a re-analysis of the deposited data

How the results depend on the processing

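The family total kept its direction under every pseudocount, scaling, choice of stages and left-out library run. Its log2 change moved to 1.75 with equal library totals and 2.76 with valid reads for PF_D against PF_L, and to 0.93 with equal totals for PF_D against PF_Z. Leaving out 1 library gave 2.07 to 2.22 for PF_D against PF_L, 1.04 to 1.65 for PF_D against PF_Z and 0.51 to 1.13 for PF_Z against PF_L. The share of forms with substitutions then was 97.6% to 98.4% at PF_L, 97.8% to 98.6% at PF_Z and 98.8% to 99.0% at PF_D. Over all miRNAs limma called 253 between PF_D and PF_L, 57 between PF_D and PF_Z and 18 between PF_Z and PF_L. With 1 library left out these counts were 123 to 283, 29 to 71 and 9 to 40, and with only the compared stages fitted the last 2 were 36 and 11. Among the called miRNAs, the share that was higher was 49.8% for PF_D against PF_L, and 30.8% with equal totals and 78.7% with valid reads. For PF_D against PF_Z it was 71.9%, 43.4% and 82.7%, and for PF_Z against PF_L it was 9 of 18 calls, 57.9% and 66.7%. Alternatives for the size families were chosen after seeing the data: 1 was called between PF_Z and PF_L with a median of ratios and 1 between PF_D and PF_Z with equal totals. Leaving out 1 library gave 3 to 5 for PF_D against PF_L, 0 to 1 for PF_D against PF_Z and 1 to 2 for PF_Z against PF_L. Deviations from the stage means correlated at -0.10 to 0.28 between same-numbered libraries and at -0.27 to 0.31 between differently numbered ones. With 3 libraries per stage this cannot settle whether the numbers pair them. A replicate block gave 265, 58 and 21 called miRNAs and left the family changes at 2.17, 1.33 and 0.83. The planned count test with edgeR was not run, because whole reads could not be recovered for every library. Depth limits the scarce members most, at 25 reads or fewer for mdm-miR530a.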
